A study of Mus musculus with 12 samples.

Results

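The Schwann cell myelin genes considered here were Pmp22, Mbp, Prx, Mal, S100b and Sox10, and they were read in mouse gastrocnemius, a muscle of the calf, from its pale and mostly fast-twitch portion. Members were chosen by gene symbol: a probe set counted where the platform annotation named that gene and no other. The rule found 16 of the 22626 probe sets, which measured 5 of the 6 members, among 12393 genes in all. Pmp22 had 1 probe set, Mbp 8, Sox10 3, Mal 2 and S100b 2. The level of Prx, which encodes periaxin, was not analysed here. The arrays, 12 in number, carried RNA from male C57BL/6 mice of generation F7, 14 weeks old, after a night without food. On 6 of them the RNA came from AMPK gamma3 knock-out mice, which lack 1 regulatory subunit of the energy sensor AMP-activated protein kinase, and on the other 6 from wild type littermates. The labels call the mutation a knock-out and do not say how it was made or in which cells. Replicates are biological according to the series' design notes. Prkag3, which encodes gamma3, was not analysed here, so the genotype was checked only by the note in each array's own record, which matched the label on 12 of 12 arrays.

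Myelin in a muscle piece belongs to the Schwann cells that wrap motor and sensory axons of the nerve branches running through it. The transcription factor SOX10 is needed to form Schwann cells and, together with EGR2, switches on the myelin genes. PMP22 is a membrane glycoprotein of compact peripheral myelin, and an extra copy of its gene causes the inherited neuropathy Charcot-Marie-Tooth disease type 1A. MBP holds the inner faces of the myelin membrane together, MAL is a proteolipid of myelin membranes that epithelial cells also make, and S100B is a calcium-binding protein widely used to stain Schwann cells. Neither Pmp22 nor Mbp is read in Schwann cells alone: Pmp22 is also transcribed at a lower level in fibroblasts and other tissues, and the Mbp gene also gives Golli transcripts outside myelin. In a whole muscle piece, fewer Schwann cells and less RNA per Schwann cell cannot be told apart.

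Pmp22 is known for alternative promoters, of which one serves mainly myelinating Schwann cells and another, rich in GC, serves many tissues. The RefSeq table (GRCm38.p6) held 4 Pmp22 starts. The 250 bases before the most upstream and the most downstream of them are shown because they differ most in base composition and because the single Pmp22 probe set does not say which start its transcripts came from. Capitals mark each CG, and both are on the plus strand, at chr11:63128732-63128981 and at chr11:63132553-63132802.
Pmp22 most upstream start: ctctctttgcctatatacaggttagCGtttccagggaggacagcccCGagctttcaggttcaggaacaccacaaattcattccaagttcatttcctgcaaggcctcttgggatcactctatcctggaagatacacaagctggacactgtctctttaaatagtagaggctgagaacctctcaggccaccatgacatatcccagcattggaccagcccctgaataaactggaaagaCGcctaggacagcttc
Pmp22 most downstream start: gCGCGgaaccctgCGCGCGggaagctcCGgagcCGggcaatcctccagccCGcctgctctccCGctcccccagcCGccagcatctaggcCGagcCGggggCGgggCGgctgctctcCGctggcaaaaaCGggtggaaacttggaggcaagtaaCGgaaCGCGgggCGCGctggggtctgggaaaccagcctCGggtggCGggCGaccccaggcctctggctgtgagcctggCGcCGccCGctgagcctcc
The upstream stretch held 3 CG and 48.8% G or C, and the downstream stretch 27 CG and 73.6%. The other Pmp22 starts held 14 CG each, at 61.2% and 64.8% G or C. Over the 32851 windows of 250 bases in the table the median was 6 CG and 52.4%. The letters ACAAAG or ACAATG, read on both strands as a SOX-type motif, were in 25.2% of all windows, and GCGNGGGCG, an EGR-type motif, in 4.7%. Neither was found in the 7 windows of Pmp22, Prx, Mal and S100b (0 of 7 for each), which says only that these letters are not in these windows.

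The deposited intensities, made by the authors with RMA per the submitters' processing notes, ran from 7.47 to 21828. Array medians lay between 132 and 139 units and array pairs correlated at 0.991 to 0.997, with 0 identical pairs. The array records gave 3 wash runs of 4 arrays, each with 2 of either genotype. Muscle genes chosen after their values were seen, Acta1, Myh4, Pvalb, Actn3 and Ckm, all lay above the 99.9th percentile of level, as a check on the labelled tissue. Because RMA gives all arrays nearly the same distribution, a shift shared by most transcripts cannot be seen. Precision is limited by having 6 arrays of each genotype. All levels below are log2 of intensity, and levels of different probe sets are not set against each other, since probes differ in brightness.

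Pmp22 averaged higher in knockout muscle, but it did not pass the test across all probe sets. Its probe set 1417133_at had a lowest level of 9.74, a median of 9.96 and a highest of 10.10 in knockout, against 9.51, 9.69 and 9.85 in wild type. The groups overlapped: knockout replicates 1, 4, 5 and 6 lay above the highest wild type array, wild type replicates 3, 4 and 6 lay below the lowest knockout array, and all 6 knockout arrays lay above the wild type median. Mean levels were 9.94 ± 0.15 for knockout and 9.69 ± 0.14 for wild type (SD, n = 6 each). The difference was 0.25 ± 0.07 (SE) on the log2 scale, 18.6% higher, with a 95% interval of 0.09 to 0.40 (limma, unadjusted p = 0.00417, Benjamini-Hochberg adjusted p = 0.707). Within wash runs 1, 2 and 3 the difference was 0.14, 0.29 and 0.30, each from 2 arrays against 2. With the level of Mbp probe set 1419646_a_at as a covariate the difference was 0.19 ± 0.07 (SE), with an adjusted p of 0.933 in limma.

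Across the whole table, 3 probe sets passed an adjusted p of 0.05 in limma, all of them lower in knockout, which is 0.0133% of those tested. None of the 16 myelin probe sets was among them (0 of 16). At an unadjusted p under 0.05, 3 of the 16 were higher in knockout and 0 lower, where 3.35% of all probe sets were higher and 2.69% lower. The 3 were Pmp22 and the Mbp probe sets 1456228_x_at and 1454651_x_at. Both Mbp sets read the same gene and correlated at 0.922, so the 3 are not independent. The members were also chosen with earlier results of these data known. Here and below, setting their share beside that of all probe sets is therefore a description. By the brightest probe set of each gene, 1 of the 5 measured members was higher at that level, Pmp22. By sign alone, 8 of the 16 were higher in knockout and 8 lower, where 10663 of all 22626 probe sets were higher and 11963 lower. The median difference of the 16 was 0.01, beside -0.00473 over all probe sets. The levels of the genotypes overlapped for all 16, and none of the measured members lies on chromosome 1 (0 of 5), where Prkag3 lies in the mouse.

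**Figure D1:**
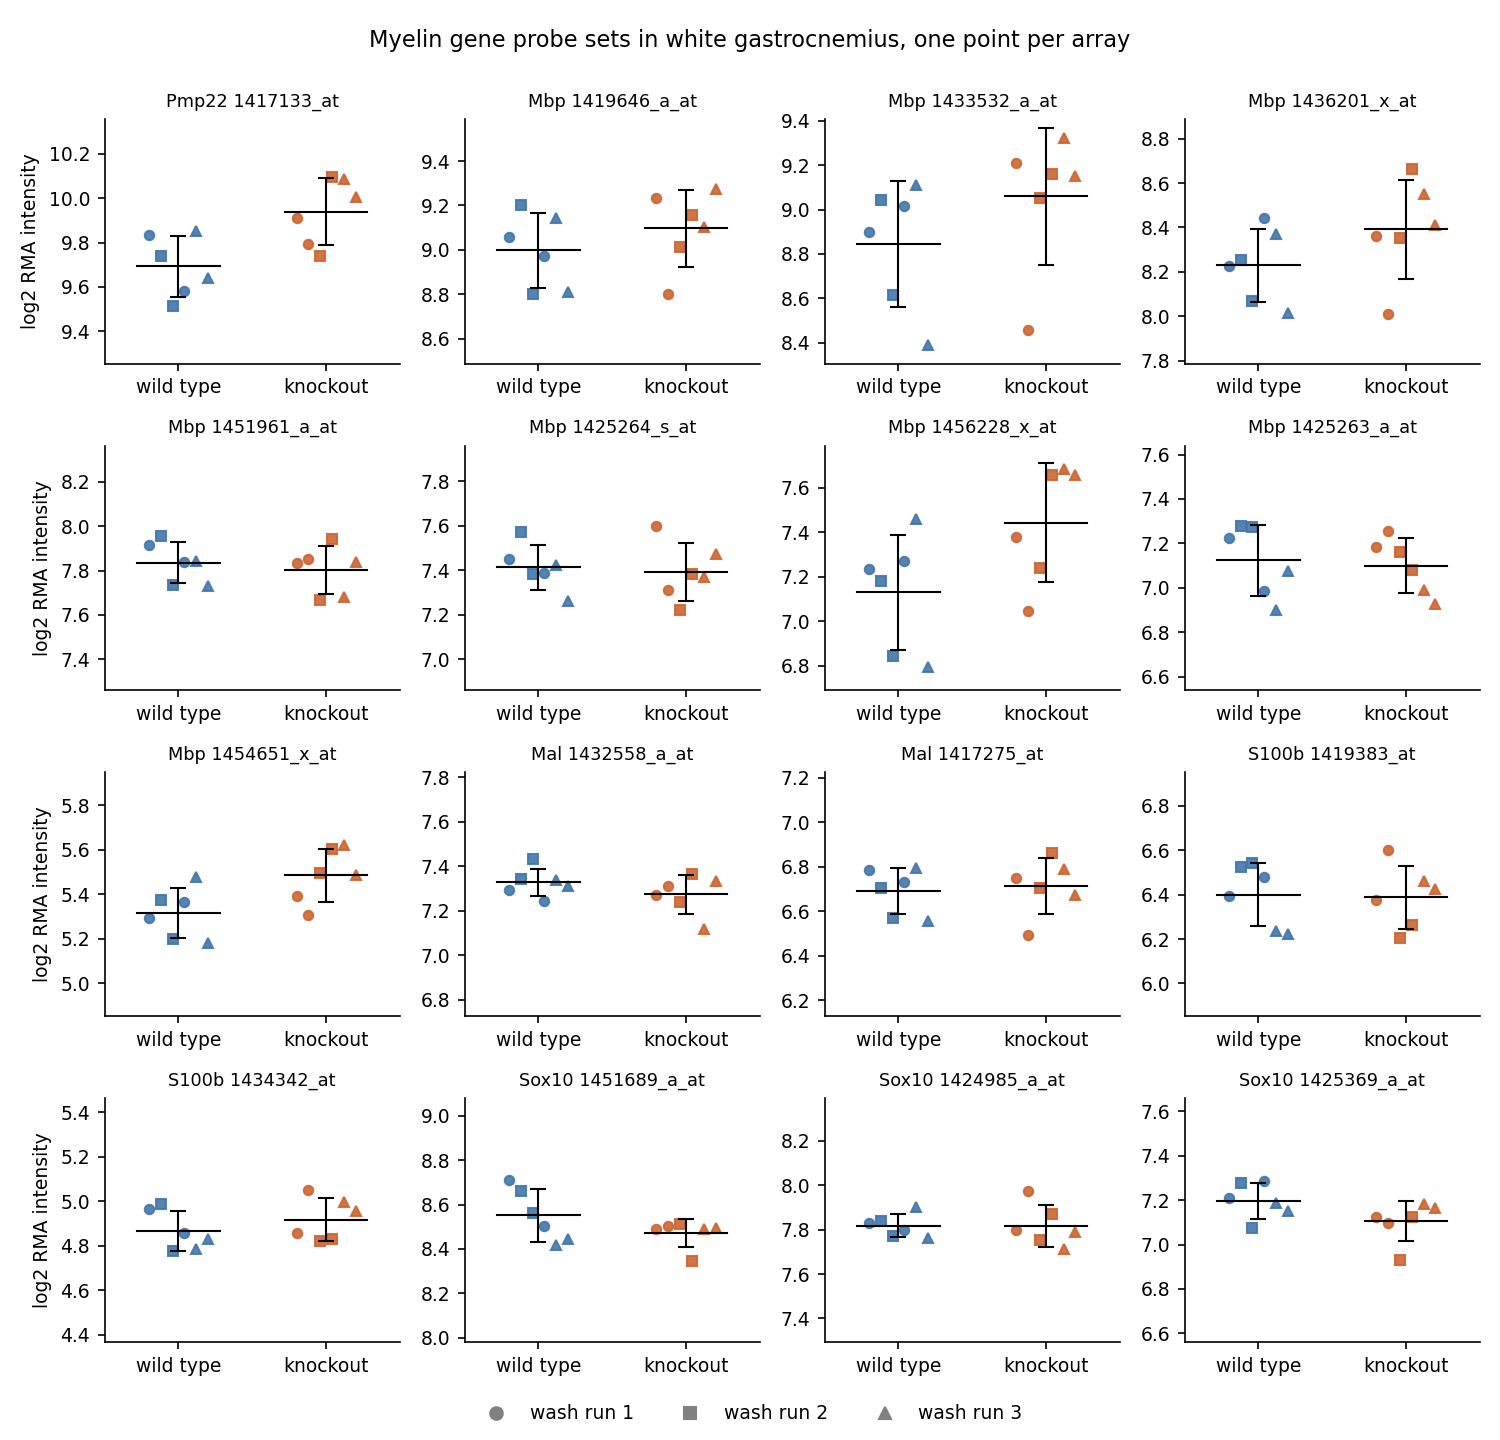
Log2 RMA intensity (y axis) of each of the 16 myelin gene probe sets on every array, wild type in blue and knockout in orange. Point shape gives the wash run, the long bar the mean and the short bars 1 SD over 6 arrays. All panels span the same height in log2 units, and the genotypes overlap in all 16 panels.

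Mbp had 8 probe sets, split here into 5 whose Pearson's r to Pmp22 over the 12 arrays, given below, exceeded 0.6, and 3 whose r did not. In the first 5 (1419646_a_at, 1433532_a_at, 1436201_x_at, 1456228_x_at and 1454651_x_at) every pair correlated at 0.673 to 0.922 over the 12 arrays, in 10 pairs. The other 3 (1451961_a_at, 1425264_s_at and 1425263_a_at) correlated with one another at 0.0981 to 0.618 and with the first 5 at -0.602 to 0.691. Since the split was made from r to Pmp22, the contrast between the groupings and their relation to Pmp22 are a description. A pair across the split, 1419646_a_at with 1425264_s_at, correlated at 0.691. On Affymetrix arrays the ending _a_at marks probes shared by transcripts of 1 gene, while _s_at and _x_at mark probes that can match transcripts of other genes.

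The brightest Mbp probe set, 1419646_a_at, ran from 8.80 through a median of 9.13 to 9.28 in knockout, and from 8.80 through 9.02 to 9.20 in wild type. Knockout replicate 2 and wild type replicates 3 and 6 were the lowest arrays, within 0.02 of one another, and each came from a different wash run. These 3 arrays were also the lowest for 1433532_a_at, 1436201_x_at and 1456228_x_at, and were among the 4 lowest for 1454651_x_at. The genotype difference of 1419646_a_at was 0.10 ± 0.09 (SE), with an adjusted p of 0.923 in limma.

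Probe set 1456228_x_at ran from 7.04 through 7.52 to 7.69 in knockout and from 6.80 through 7.21 to 7.46 in wild type. Knockout replicates 4, 5 and 6 lay above every wild type array and the rest overlapped. Its difference of 0.31 ± 0.12 (SE) was the largest of the 16 probe sets and had a limma adjusted p of 0.783, with an unadjusted p of 0.0208. Probe set 1454651_x_at ran from 5.31 through 5.49 to 5.62 in knockout and from 5.18 through 5.33 to 5.48 in wild type, and differed by 0.17 ± 0.06 (SE, limma adjusted p = 0.783). In it, 4 of 6 knockout arrays were above the highest wild type array. Within wash run 1 these differences were -0.04 and 0.02, against 0.44 and 0.27 in run 2 and 0.55 and 0.22 in run 3.

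The remaining Mbp probe sets did not pass in either direction. Probe set 1433532_a_at ran from 8.46 to 9.32 in knockout and from 8.39 to 9.11 in wild type, a difference of 0.21 ± 0.14 (SE, limma adjusted p = 0.897). Probe set 1436201_x_at differed by 0.16 ± 0.09 (SE, limma adjusted p = 0.878). In wash run 1 both pointed the other way, at -0.12 and -0.15. The 3 sets outside the correlated group differed by -0.03, -0.02 and -0.02, with limma adjusted p-values of 0.970, 0.985 and 0.983 for 1451961_a_at, 1425264_s_at and 1425263_a_at.

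**Figure D2:**
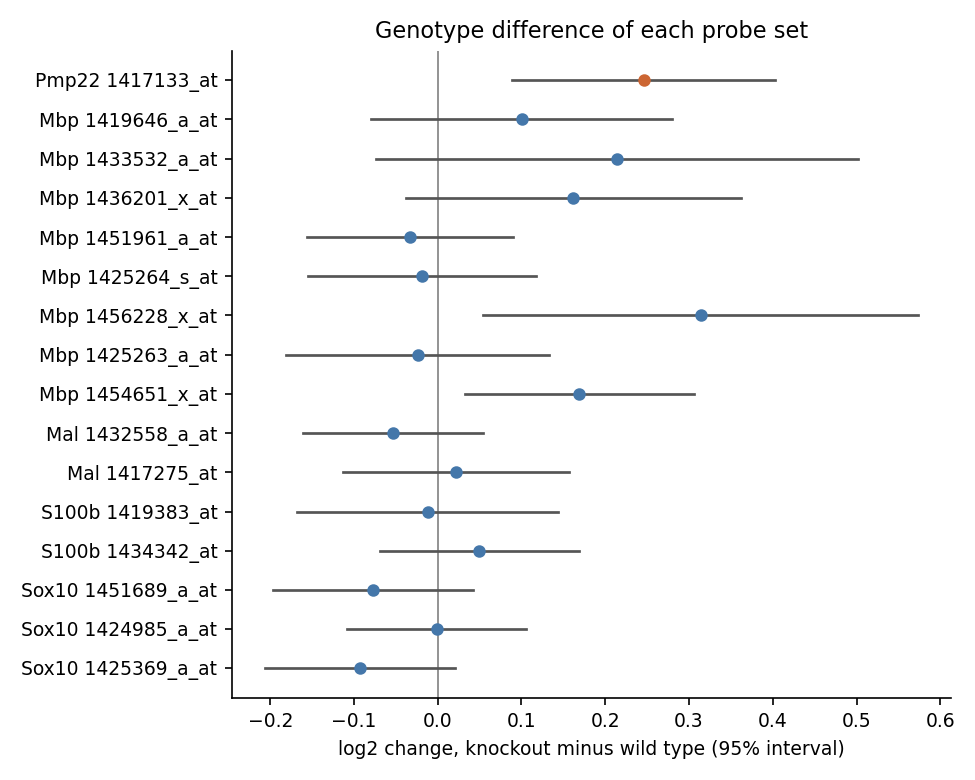
Difference between genotypes (x axis, log2, knockout minus wild type) for each of the 16 probe sets, with the limma 95% interval as a line. The intervals of Pmp22 and of the Mbp probe sets 1456228_x_at and 1454651_x_at lie above 0 before adjustment for the number of probe sets tested, and the other 13 cross it.

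The 3 Mbp probe sets of the correlated group that end in _x_at belong to a class of 1512 in the table, and the class as a whole leaned towards higher values in knockout. Its median difference was 0.02, beside -0.01 for all other probe sets, and 6.88% of it was higher in knockout at an unadjusted p under 0.05 and 1.32% lower. Its median correlation with Pmp22 was 0.104, beside 0.006 over all probe sets. The part of this lean in the Mbp values was not tested. The Mbp probe sets 1419646_a_at and 1433532_a_at, which are not of this class, differed by 0.10 and 0.21.

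The correlated Mbp probe sets were also among the more variable on these arrays. The SD within genotype was 0.29 for 1433532_a_at, which put it at the 99.0th percentile of all probe sets, and 0.26 for 1456228_x_at, at the 98.4th. That of Pmp22 was 0.14, at the 82.2nd percentile. The median over all probe sets was 0.10. The 3 Sox10 probe sets lay at the 37.1st, 16.6th and 27.0th percentiles.

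Mal had 2 probe sets that did not vary alike. Probe set 1417275_at ran from 6.49 through 6.73 to 6.86 in knockout and from 6.55 through 6.72 to 6.79 in wild type, a difference of 0.02 ± 0.06 (SE, limma adjusted p = 0.982). Its lowest arrays were again knockout replicate 2 and wild type replicates 6 and 3, and it correlated with the 5 Mbp probe sets at 0.721 to 0.870. Probe set 1432558_a_at ran from 7.12 through 7.29 to 7.37 in knockout and from 7.25 through 7.33 to 7.43 in wild type, and differed by -0.05 ± 0.05 (SE, limma adjusted p = 0.942). Wild type replicate 3, low for Mbp, was its highest array.

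S100b was read by probe sets 1419383_at and 1434342_at, the latter dim. The first ran from 6.20 through 6.40 to 6.60 in knockout and from 6.22 through 6.44 to 6.54 in wild type, with a difference of -0.01 ± 0.07 (SE, limma adjusted p = 0.993). The second ran from 4.82 through 4.90 to 5.05 and from 4.78 through 4.84 to 4.99, with a difference of 0.05 ± 0.06 (SE, limma adjusted p = 0.955). Knockout replicate 2, among the lowest arrays for Mbp, was the highest array for both S100b probe sets.

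Sox10 gave negative differences in 3 of 3 probe sets, none of which passed, and that of 1424985_a_at turned positive after array centring, quantile normalization or a block for fluidics module. Probe set 1451689_a_at ran from 8.35 through 8.49 to 8.51 in knockout and from 8.42 through 8.53 to 8.71 in wild type, a difference of -0.08 ± 0.06 (SE, limma adjusted p = 0.909). For it and for 1425369_a_at, 0 of 6 knockout arrays lay above the wild type median, though the ranges overlapped. Probe set 1425369_a_at ran from 6.93 through 7.12 to 7.18 in knockout and from 7.07 through 7.20 to 7.29 in wild type, and differed by -0.09 ± 0.05 (SE, limma adjusted p = 0.877). In wash run 3 these differences were 0.06 and 0.01, against -0.11 to -0.18 in the other runs. Probe set 1424985_a_at ran from 7.71 to 7.97 in knockout and from 7.76 to 7.90 in wild type, and differed by -0.00103 ± 0.05 (SE, limma adjusted p = 0.999).

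The next question was whether Pmp22 follows the other myelin genes from array to array. Before adjustment it correlated positively with 5 Mbp probe sets and with 1 Mal probe set, and with none of S100b or Sox10 over all arrays. No single correlation passed once adjusted over all probe sets. Pearson's r of Pmp22 with each of the other 15 myelin probe sets was tested over 12 arrays with a permutation test of 100000 resamples, two-sided, and adjusted over all 22625 probe sets. At an unadjusted p under 0.05, 6 of the 15 correlated with Pmp22, all positively, where 5.95% of all probe sets (1347) passed in either direction. By the brightest probe set of each other member, only Mbp was among them, and r was negative for Mal, S100b and Sox10. After adjustment 0 of the 15 passed, and 0 in the whole table.

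The closest was Mbp 1456228_x_at, with r = 0.871 (permutation p = 0.00029, adjusted p = 0.505) and Spearman's rho of 0.818 (permutation p = 0.00181, adjusted p = 0.971). Mbp 1454651_x_at followed at r = 0.808 (permutation p = 0.0021, adjusted p = 0.690) and rho of 0.727 (permutation p = 0.00978, adjusted p = 0.971). The other correlated Mbp probe sets, 1436201_x_at, 1419646_a_at and 1433532_a_at, had r of 0.688, 0.685 and 0.653 (permutation p of 0.014, 0.0153 and 0.0221, adjusted 0.765, 0.773 and 0.788), with rho of 0.608, 0.685 and 0.783 (permutation p of 0.0413, 0.0173 and 0.00394, adjusted 0.972, 0.971 and 0.971). Mal 1417275_at had r of 0.589 (permutation p = 0.0448, adjusted p = 0.831) and rho of 0.622 (permutation p = 0.0349, adjusted p = 0.971). Of these probe sets, Mal 1417275_at and Mbp 1454651_x_at lay below the median level of all probe sets. The correlations are not independent of one another, since the Mbp and Mal sets share the arrays on which they were low. The 5 Mbp sets were grouped by their r to Pmp22, so their lying above 0.6 and the other 3 below it was fixed beforehand.

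For Sox10 no relation with Pmp22 was detectable over 12 arrays: r was -0.343 for 1451689_a_at, 0.0637 for 1424985_a_at and 0.0213 for 1425369_a_at, with permutation p-values of 0.278, 0.845 and 0.949. S100b gave -0.194 and 0.339 (permutation p of 0.537 and 0.276), and the second Mal probe set -0.330 (permutation p = 0.297). The 3 Mbp sets outside the correlated group gave 0.211, 0.245 and -0.382 (permutation p of 0.506, 0.443 and 0.218). Adjusted over all probe sets, these 9 p-values lay between 0.908 and 0.994, and those of rho between 0.972 and 1.

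**Figure D3:**
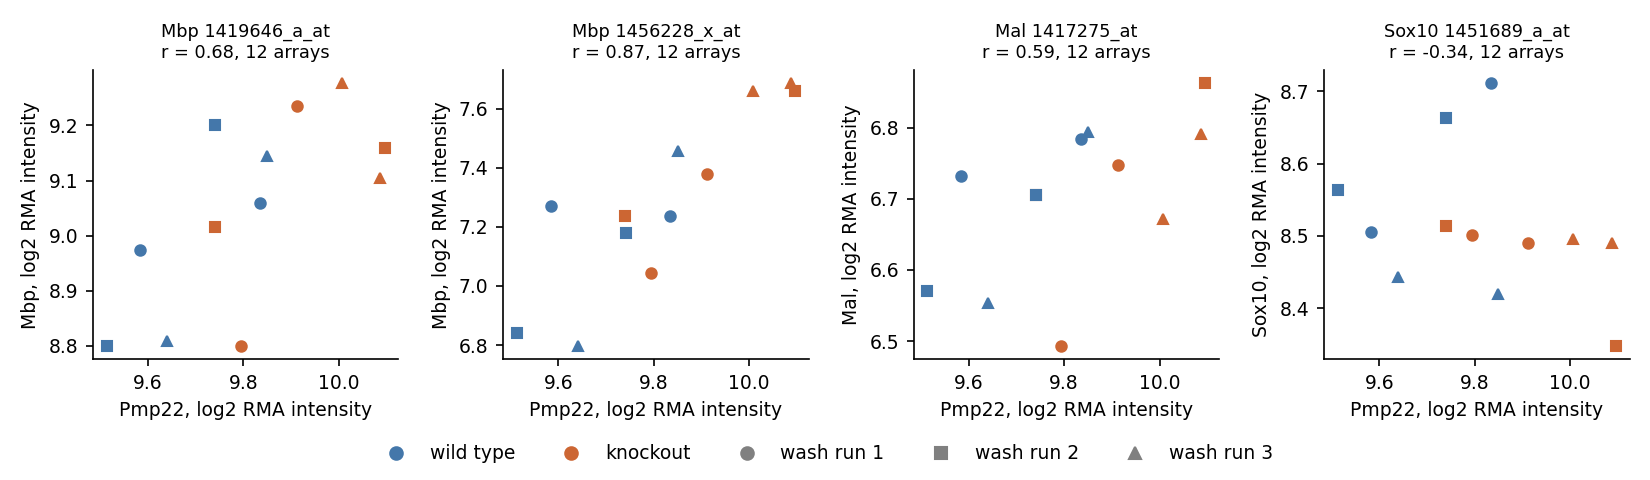
Log2 RMA intensity of Pmp22 (x axis) against that of 4 other myelin probe sets (y axes) on the 12 arrays, coloured by genotype and shaped by wash run. Mbp 1419646_a_at, Mbp 1456228_x_at and Mal 1417275_at run upwards with Pmp22, and Sox10 1451689_a_at does not.

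The relation was then tried without the arrays farthest from the median of Pmp22, wild type replicate 3 and knockout replicate 4, which left 10. The closest probe set, 1456228_x_at, kept r = 0.796 (permutation p = 0.00618) and 1454651_x_at kept 0.682 (permutation p = 0.030). The other 4 fell to 0.585 for 1419646_a_at, 0.576 for 1433532_a_at, 0.486 for 1436201_x_at and 0.357 for Mal (permutation p of 0.0747, 0.0787, 0.155 and 0.311). Leaving out the extremes of Pmp22 also narrows its range, which lowers r by itself. Adjusted over all probe sets, the 6 p-values lay between 0.706 and 0.899. A wash run held 4 arrays, too few for a correlation of its own.

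Within genotype, both groups gave positive values for these 6 probe sets. In knockout r ran from 0.605 to 0.923 and in wild type from 0.354 to 0.775, each over 6 arrays. For 1456228_x_at it was 0.923 in knockout (exact permutation p = 0.0125) and 0.691 in wild type (exact permutation p = 0.140), and for Mal 1417275_at 0.684 and 0.760 (exact permutation p of 0.121 and 0.0958). Sox10 1425369_a_at correlated with Pmp22 at 0.796 in knockout and 0.347 in wild type (exact permutation p of 0.0167 and 0.504), although over all 12 arrays it was at 0.0213. Sox10 1424985_a_at gave -0.273 and 0.828 (exact permutation p of 0.610 and 0.0458). After adjustment over all probe sets, these p-values were all above 0.999. The differences between genotypes in r were not tested.

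With each genotype centred on its own mean, a description that takes the genotype difference out, Mbp 1456228_x_at ranked 12th of 22625 probe sets in likeness to Pmp22, at r = 0.813. Mal 1417275_at ranked 83rd at 0.715, Mbp 1419646_a_at 132nd at 0.685 and Mbp 1454651_x_at 160th at 0.671. Mbp 1436201_x_at ranked 363rd, Sox10 1425369_a_at 443rd and Mbp 1433532_a_at 467th. Over all probe sets, 4.72% lay above 0.5 and 0.477% above 0.7. Among those above 0.5, 8.71% ended in _x_at, beside 6.68% of the whole table. Without centring, 13.3% of the probe sets with r above 0.6 to Pmp22 ended in _x_at.

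**Figure D4:**
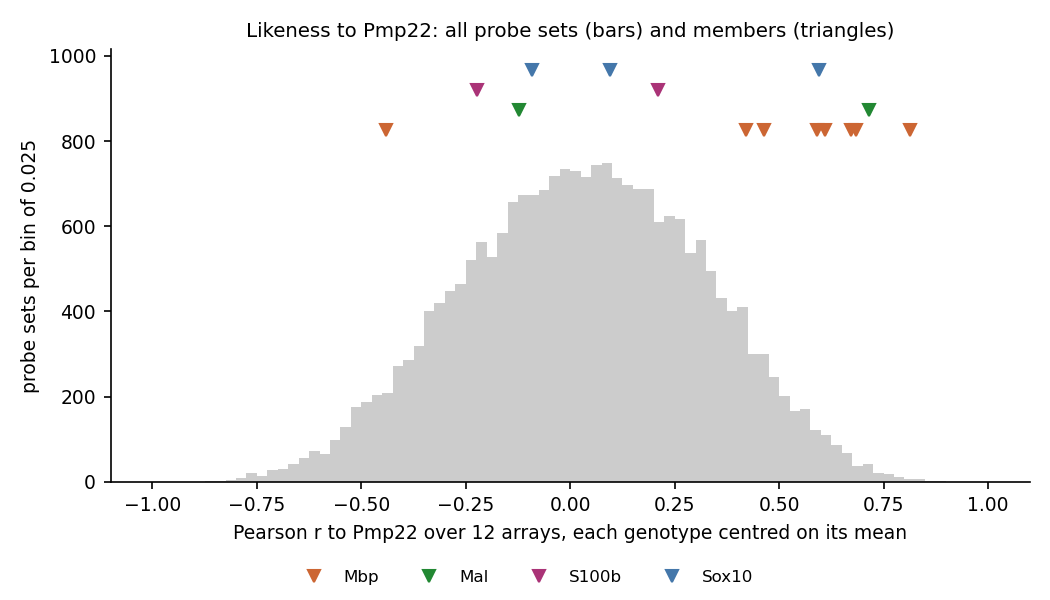
Distribution of Pearson's r to Pmp22 over all 22625 other probe sets (bars, y axis in probe sets per bin), each genotype centred on its mean, with the 15 other myelin probe sets as triangles by gene at heights that carry no value. Mbp 1456228_x_at at 0.813 and Mal 1417275_at at 0.715 lie in the upper tail, and Sox10 and S100b are spread from -0.223 to 0.595.

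The same question was put to the whole table in a limma fit of each probe set on the Pmp22 level beside genotype. No probe set passed an adjusted p of 0.05 (0 of 22625, 0%), and 584 had an unadjusted p under 0.05. Of the 15 myelin probe sets, 6 had a positive slope at that level and 0 a negative one, where 1.48% of all probe sets had a positive and 1.1% a negative one. They were the 5 correlated Mbp sets and Mal 1417275_at, each with an adjusted p of 1 in limma. Most of these sets read Mbp, so the count is not one of separate genes. By the brightest probe set of each other member, 1 had a positive slope at that level, Mbp, and 0 a negative one. Genotype-centred r to Pmp22 was positive for 1 of these members and negative for 3. Its median was -0.108, beside 0.0353 over all probe sets. The slope of Mbp 1456228_x_at was 1.49 ± 0.31 (SE) log2 units per unit of Pmp22, and that of Mal 1417275_at 0.58 ± 0.21 (SE). In the same fit on the level of Mbp 1419646_a_at, 0 probe sets passed an adjusted p of 0.05 in limma (821 at an unadjusted p under 0.05), and 7 of the 15 myelin probe sets had a positive slope and 0 a negative one at an unadjusted p under 0.05, where 1.94% of all had a positive and 1.68% a negative one. Those 7 were Pmp22, the other 4 of the correlated Mbp sets, Mbp 1425264_s_at and Mal 1417275_at. Most of them read Mbp itself, the gene used as the predictor, so the count is not one of separate genes. By the brightest probe set of each member, 1 had a positive slope at that level, Pmp22.

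**Figure D5:**
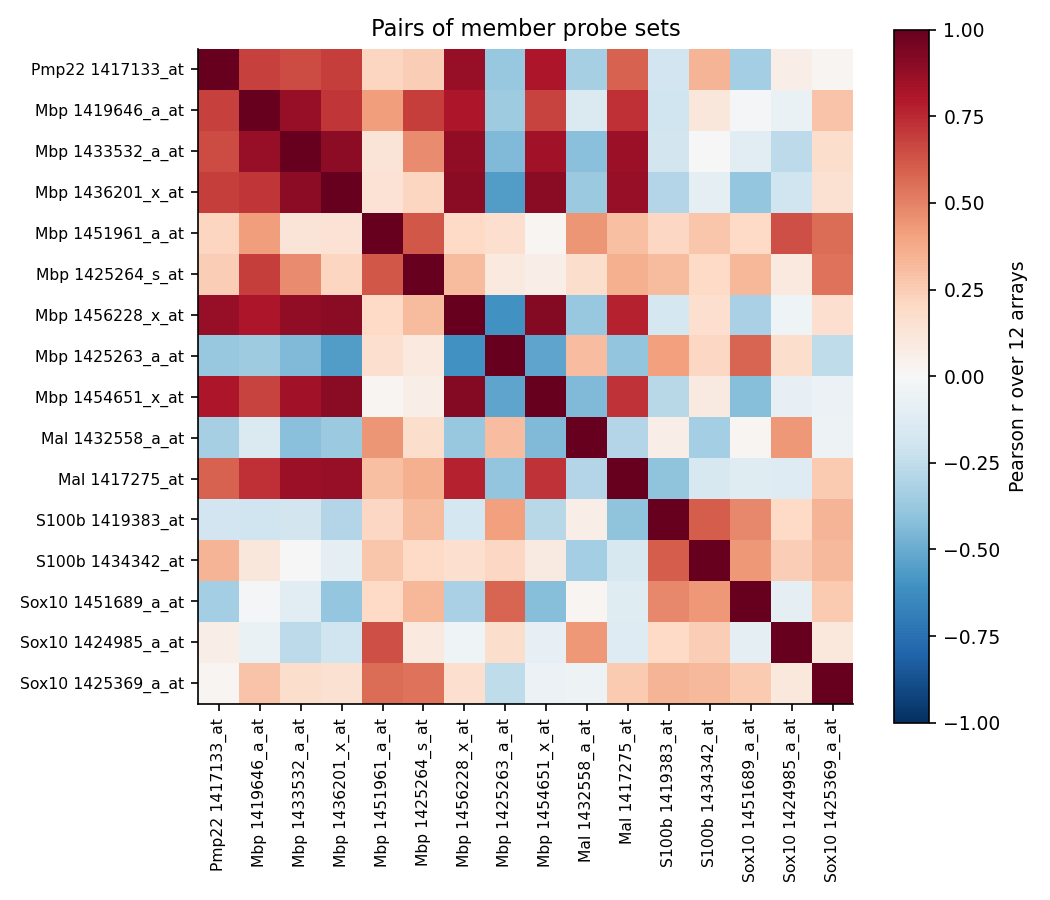
Pearson's r over 12 arrays for every pair of the 16 myelin probe sets, red for positive and blue for negative values on a scale from -1 to 1. Pmp22, 5 Mbp sets and Mal 1417275_at form a red block, while Mbp 1425263_a_at and Sox10 1451689_a_at are mostly pale or blue against it.

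Further Schwann cell and myelin genes gave no call. Of 30 such genes, 23 were measured, each by its brightest probe set, and 7 were higher and 16 lower in knockout, none past the test, with a median of -0.03 beside -0.00473 over all probe sets. Mag, a myelin adhesion protein, differed by -0.03, Egr2, the partner of SOX10, by -0.03, and Gjb1, a gap junction protein of Schwann cells, by 0.01 (limma adjusted p of 0.966, 0.979 and 0.990). Cnp, an enzyme of myelin-forming cells, differed by 0.18 ± 0.06 (SE, limma adjusted p = 0.780) at 1437341_x_at, while its other probe sets, 1449296_a_at and 1418980_a_at, gave -0.04 and -0.02. The median r to Pmp22, genotype-centred, was 0.0152 over the 23 genes, beside 0.0353 over all probe sets, with 13 positive and 10 negative. In limma, 0 of the 23 followed Pmp22 in either direction at an unadjusted p under 0.05. Values nearest to it were those of Dusp15, Fa2h, an enzyme of myelin lipid synthesis, and Erbb3, the neuregulin receptor of Schwann cells, with r of 0.552, 0.505 and 0.482 and slopes of 0.51, 0.62 and 0.56 (limma unadjusted p of 0.0545, 0.0601 and 0.0779, all adjusted to 1). Summed intensity of the 23 was 6146 to 6622 in knockout and 6475 to 6572 in wild type, and 11 of the 23 lay below the median level of all probe sets.

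Axon genes gave no passing probe set either (0 of 10), with 4 higher and 6 lower and summed intensities of 554 to 635 in knockout and 548 to 629 in wild type. Of these 10, 8 lay below the median level of all probe sets, where RMA shrinks differences. How far they reflect axons in the piece was not tested. The axonal enzyme gene Uchl1 ran from 5.86 to 6.52 in knockout and from 5.73 to 6.11 in wild type, a difference of 0.19 ± 0.10 (SE, limma adjusted p = 0.861). Of 6 genes of Schwann cell survival and neuregulin signalling, 3 were higher and 3 lower. Adam17, a protease that cuts neuregulin, differed by -0.08 ± 0.06 (SE, limma adjusted p = 0.901).

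PMP22 belongs to a small protein family with EMP1, EMP2 and EMP3 and was first described as a gene switched on in growth-arrested fibroblasts. Of 9 family and growth arrest genes, 4 were higher and 5 lower in knockout, and none passed (0 of 9). Gas5, a growth arrest RNA that hosts small nucleolar RNAs, differed by 0.22 ± 0.08 (SE, limma adjusted p = 0.781) at 1449410_a_at and by 0.22 ± 0.09 (SE, limma adjusted p = 0.783) at 1419291_x_at, while its dimmer probe sets 1424843_a_at and 1436222_at gave -0.01 and 0.06. It ran from 9.98 to 10.29 in knockout and from 9.74 to 10.27 in wild type at the first. Emp3 and Gas1 had negative slopes on Pmp22, of -0.47 and -0.61 (limma unadjusted p of 0.0465 and 0.0209, both adjusted to 1).

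Markers of other cell types in the piece gave no gene that followed Pmp22 after adjustment in limma. For fibroblasts, 11 of 12 genes had a negative genotype-centred r to Pmp22, with a median of -0.421 beside 0.0353 over all probe sets. Col1a1, Col1a2, Col3a1 and Lum, genes of collagen matrix, had slopes of -1.80, -1.12, -1.25 and -1.09 log2 units per unit of Pmp22 (limma unadjusted p of 0.0117, 0.00945, 0.018 and 0.0251, all adjusted to 1). Summed fibroblast intensity ran from 12934 to 19342 in knockout and from 14260 to 17837 in wild type, and none of its genes differed by genotype past the test (0 of 12). Pdgfra, a fibroblast receptor, differed by 0.15 ± 0.05 (SE, limma adjusted p = 0.781) at 1421917_at and by -0.05 ± 0.10 (SE, limma adjusted p = 0.976) at 1421916_at. No fibroblast marker was at 0, since RMA values lie above 0. The part of fibroblast RNA in the Pmp22 pattern was not tested.

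The other marker lists passed in no gene, with values as follows. Of 9 smooth muscle and pericyte genes, 2 were higher and 7 lower in knockout, led by Kcnj8 at -0.15 ± 0.08 (SE, limma adjusted p = 0.865), and the pericyte gene Rgs5 had a slope of -1.06 on Pmp22 (limma unadjusted p = 0.000665, adjusted to 1). Summed intensity of the list was 5096 to 5926 in knockout and 5154 to 6194 in wild type. Of 9 macrophage genes, 7 had a negative genotype-centred r to Pmp22, with a median of -0.383, beside 0.0353 over all probe sets. In this list 6 were higher in knockout, and Cd74 differed by 0.18 ± 0.08 (SE, limma adjusted p = 0.817), with sums of 2844 to 3464 and of 2823 to 3192. Of 7 fat cell genes, 6 had a positive genotype-centred r to Pmp22, with a median of 0.316, and 5 were higher in knockout. Cidec, a lipid droplet protein, differed by 0.26 ± 0.10 (SE, limma adjusted p = 0.783) with a slope of 0.86 on Pmp22 (limma unadjusted p = 0.020). Sums over the fat cell list were 14754 to 16654 in knockout and 14271 to 16736 in wild type.

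Among 10 endothelial genes 3 were higher and 7 lower, with Kdr, a receptor for VEGF, at -0.22 ± 0.09 (SE, limma adjusted p = 0.812). Among 5 endoneurial and perineurial genes, 1 was higher, and Cldn1, a tight junction protein of the perineurium, differed by -0.20 ± 0.06 (SE, limma adjusted p = 0.707) at 1450014_at and by -0.06 to -0.01 at its other 3 probe sets. Among 8 satellite cell genes 5 were higher, with Cdh15 at 0.14 ± 0.05 and Des at 0.11 ± 0.05 (SE, limma adjusted p of 0.781 and 0.818), while the second Des probe set gave -0.10. Summed endothelial intensity was 2813 to 3017 in knockout and 2914 to 3300 in wild type. Over the endoneurial and perineurial list it was 682 to 763 and 721 to 758, and over the satellite cell list 7043 to 7989 and 6614 to 7202. Most of the satellite cell sum was Des 1426731_at, with mean levels of 12.61 in knockout and 12.50 in wild type. That sum therefore cannot be read as an amount of satellite cells. The part of these cells in the Pmp22 difference was not tested.

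The genes whose genotype-centred pattern was most like Pmp22, among 10377 searched with probe sets above the median level, were Pom121 at r = 0.868, Ndrg3 at 0.843, Rpl41 at 0.841, Cfap298 at 0.840 and Srprb at 0.818 over 12 arrays. POM121 is a nuclear pore protein, RPL41 a ribosomal protein and SRPRB a subunit of the signal recognition particle receptor. Of these 5, the probe sets of Rpl41 and Cfap298 end in _x_at. The least alike were Pemt at -0.844 and Lpar1, a receptor for lysophosphatidic acid, at -0.816. Most like Mbp 1419646_a_at were Abt1 at 0.961, Lancl2 at 0.900, Eif2b2 at 0.887, Hagh at 0.869 and Dhx8 at 0.864. None of these 12 genes is in the Schwann cell and myelin lists, and their genotype differences lay between -0.06 and 0.14 with limma adjusted p-values from 0.781 to 0.994.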

How the data were processed

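Total RNA of 12 muscle samples was labelled with biotin and read on 1-colour Affymetrix arrays. Intensities were deposited by the authors on a linear scale after RMA, per the submitters' processing notes; its version and a genome build are not given in the sources used here. log2 of the deposited intensities was taken with no pseudocount. Of 22690 probe sets, 64 array controls were left out. By the platform annotation, 1 gene is named for 20380 probe sets, several for 691 and none here for 1555. Knockout was compared with wild type by limma (version 3.58.1, R 4.3.3) with lmFit and eBayes (genotype as the only term, Benjamini-Hochberg over all 22626 probe sets), and likeness to Pmp22 with permutation tests in numpy 2.4.6 and with limma. The tests were checked on simulated data. Array records were read for hybridization date and time, from which the wash runs were formed, and for scan day, cage and fluidics module.

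Members and lists were chosen with earlier results of these data known. A gene of a list was read by its brightest probe set. Named beside the members were, per list, up to 4 genes with an unadjusted p under 0.05, else the gene with the smallest p, and the 5 most and 2 least alike to Pmp22 and the 5 most alike to Mbp. Mag, Egr2, Gjb1 and the genes named for their slopes on Pmp22 (Dusp15, Fa2h, Erbb3, Emp3, Gas1, Col1a1, Col1a2, Col3a1, Lum and Rgs5) fall outside this rule and were chosen after their values were seen. Alternatives were array centring, quantile normalization, a level filter, a trended robust prior, array weights, blocks for wash run, cage, module, scan day and replicate number, the Mbp level as a covariate, and leaving out each array. Within-run differences were added after seeing the data. Replicate numbers were not taken as pairs in the main fit. Same-numbered arrays had correlations of deviations from -0.150 to 0.203, which cannot settle whether the numbers pair the samples. In the array records, same-numbered knockout and wild type arrays always carried the same cage letter.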

Additional observations from a re-analysis of the deposited data

Results flagged for a closer look

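Among 80 sets of 6 arrays (a probe set in 1 genotype), 3 held an array that stood apart from the other 5 by a gap test, where chance gives about 1 in 20. For Mbp 1433532_a_at, knockout replicate 2 was lowest at 8.46, and the other knockout arrays lay between 9.05 and 9.32. For Sox10 1451689_a_at, knockout replicate 4 was lowest at 8.35, and the others lay between 8.49 and 8.51. For Sox10 1425369_a_at, knockout replicate 3 was lowest at 6.93, and the others lay between 7.10 and 7.18. The 3 arrays differ, and no cause was tested.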

How the results depend on the processing

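Across all alternatives, the count of probe sets that differed by genotype was 2 or 3, and none of the 16 myelin probe sets passed in any. The Pmp22 difference ran from 0.21 to 0.29 with each array left out (limma adjusted p 0.510 to 0.999) and from 0.19 to 0.26 under 11 other settings (0.445 to 0.933). With the replicate number as a block it was 0.25 (limma adjusted p = 0.445). The block changed no call for the myelin probe sets and gave 2 calls over all probe sets. Whether the numbers pair the samples is not known. The count of probe sets that follow Mbp was 0 to 1 with each array left out, the 1 without wild type replicate 1.

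Signs turned for the values below, none of which passed the test, and the cause was not tested. Mbp 1425264_s_at was 0.0149 with array weights and -0.0605 to 0.0152 with each array left out, and Mbp 1425263_a_at -0.0685 to 0.0105. Mal 1417275_at was -0.0083 to 0.0656 and S100b 1419383_at -0.0548 to 0.0249 when arrays were left out, and S100b 1419383_at was 0.00208 after quantile normalization. Sox10 1424985_a_at was 0.0107 with centred arrays, 0.000978 after quantile normalization, 0.000826 with the module block and -0.0324 to 0.0199 with arrays left out. Leaving out arrays moved r of Pmp22 with Mal 1432558_a_at from -0.533 to 0.00367, with Sox10 1424985_a_at from -0.0535 to 0.347 and with Sox10 1425369_a_at from -0.133 to 0.242. That with Sox10 1425369_a_at was -0.0409 with the wash run block, -0.0308 with the scan day block and -0.604 with the replicate block. RMA shrinks differences at low signal, which bears most on S100b 1434342_at, the dimmest of the 16.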
